A study of Mus musculus with 26 samples.

Results

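The mitochondrial ribosome builds the proteins encoded by mitochondrial DNA, which are core subunits of the respiratory chain and ATP synthase. Its RNAs come from mitochondrial DNA, whereas its proteins are encoded in the nucleus, made in the cytosol and imported. Some of these proteins have counterparts in the bacterial ribosome and others are specific to mitochondria. The genes studied here are the 76 mouse genes named Mrpl (large subunit, 47 genes) or Mrps (small subunit, 29 genes) followed by a number. They were found as all probe sets that name a single gene with such a symbol, 156 of the 45101 probe sets on the array. This rule uses symbols and no expression value, but the family was chosen with earlier results of these data known. Of these 156 probe sets, 145 passed the filter on dim signals and 11 did not, and each of the 76 genes kept at least 1 probe set. RefSeq lists 78 genes with such symbols. The other 2, Mrpl30 and Mrpl53, were not found on a probe set naming a single gene and were not analysed here.

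RNA of the tibialis anterior and extensor digitorum longus (TA/EDL), fast muscles of the lower leg, was measured in 26 mice on Affymetrix arrays, 1 array per mouse. FLOX mice carry floxed alleles of Ppargc1a, which encodes the transcriptional coactivator PGC-1a, and MKO mice are labelled as its skeletal muscle knockout. All were singly housed littermates fed AIN-93M diet, on a background mixed from C57/BL6 and 129. There were 7 MKO and 6 FLOX mice under calorie restriction (CR), and 7 MKO and 6 FLOX mice on the control diet (C), for 12 weeks. Intake with free access was first recorded for at least 10 days, after which CR mice received 80% of it. After a week they were given a 40% restriction version of the diet, at 60% of free intake, for about 11 weeks. Control mice received 90%. Neither the labels nor the design text give the age of the mice or the promoter that drives the deletion. The comparisons address whether PGC-1a in muscle takes part in the transcript changes of restriction.

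Within groups, arrays had correlations of 0.984 to 0.996 across the 14847 tested genes. All 5 probe sets for Ppargc1a were brighter in the labelled MKO mice, by 1.34- to 1.57-fold on CR and by 1.53- to 1.76-fold on the control diet (limma with Benjamini-Hochberg adjustment, adjusted p at most 0.0122). Their signal goes against the label as a measure of transcript loss. The labels do not say where the deletion lies, and a probe set outside of it checks nothing, so the genotype is written as labelled MKO below. The summed intensity of 6 muscle fibre markers lay between 174570 and 187708 in every mouse, and none of these genes was called in any comparison. The summed intensity of 6 slow fibre markers exceeded 2 times the median of all arrays in 2 mice, CR MKO mouse 6 (15039) and control-diet MKO mouse 4 (7421), against a median of 3574.

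The mean log2 level of the large subunit genes separated the genotypes on each diet without overlap between mice. It was 10.65 ± 0.04 in CR mice labelled MKO and 10.85 ± 0.05 in CR FLOX mice (SD, n = 7 and 6). With the control diet it was 10.59 ± 0.05 in labelled MKO and 10.76 ± 0.04 in FLOX mice. The small subunit genes gave 10.40 ± 0.03 in CR labelled MKO and 10.54 ± 0.04 in CR FLOX mice. With the control diet they gave 10.32 ± 0.06 in labelled MKO and 10.43 ± 0.04 in FLOX mice. They too separated the genotypes on each diet without overlap. Labelled MKO mice lay at 10.35 to 10.44 on CR, against 10.47 to 10.58 in FLOX mice. On the control diet the gap was narrow, at 10.20 to 10.37 against 10.38 to 10.50. Every CR labelled MKO mouse, at 10.58 to 10.68, lay below every control-diet FLOX mouse, at 10.71 to 10.83, for the large subunit. For the small subunit these groups overlapped, at 10.35 to 10.44 and 10.38 to 10.50. The lowest mouse for both subunits was control-diet MKO mouse 4, at 10.50 for the large and 10.20 for the small subunit. It is also among the mice rich in slow fibre transcripts. Another of these, CR MKO mouse 6, lay at 10.68 for the large and 10.42 for the small subunit. For the large subunit that was the highest value of its group. In RNA of whole muscle, fewer cells of a type and less RNA per cell cannot be told apart.

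**Figure D1:**
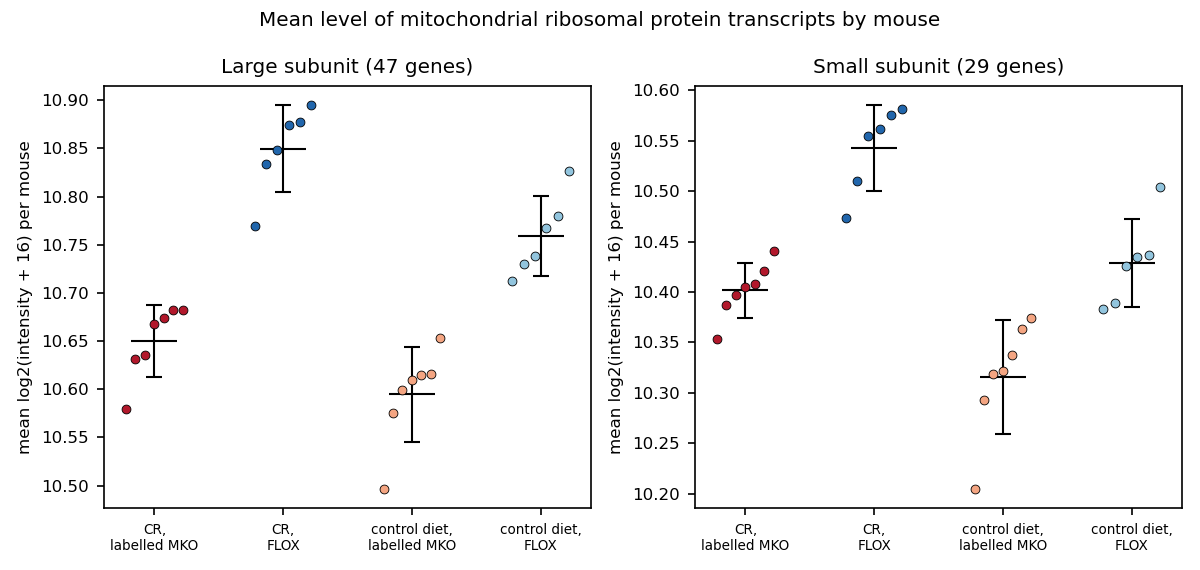
Mean log2(intensity + 16) over the 47 large subunit genes (left) and the 29 small subunit genes (right) in each mouse (points, ordered by value within a group), with group mean and SD as bars. Labelled MKO mice lie below FLOX mice on the same diet for both subunits. On CR the large subunit is at 10.58 to 10.68 against 10.77 to 10.89, and the small at 10.35 to 10.44 against 10.47 to 10.58. The vertical axes do not start at 0.

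Mitochondrial ribosomal protein transcripts were lower in labelled MKO than in FLOX muscle on both diets, and none was called higher. On CR, 40 of the 76 genes fell (26 of 47 large, 14 of 29 small subunit), against 9.05% of all genes called lower and 8.23% called higher. The median log2 change of the 76 was -0.16, against -0.016 over all genes tested. Among mice on the control diet 37 fell (26 large, 11 small), against 10.2% of all genes called lower and 9.06% called higher, and the median was -0.14, against -0.016. A call is an adjusted p under 0.05 in limma with Benjamini-Hochberg adjustment over all 14847 genes, and changes are on the log2(intensity + 16) scale.

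The folds were small: called members were 1.08- to 1.49-fold lower on CR (median 1.20-fold) and 1.08- to 1.52-fold lower on the control diet (median 1.15-fold). All labelled MKO mice lay below all FLOX mice for 24 members on CR, against 4.54% of all genes, and for 16 on the control diet, against 3.81%. The converse held for 0 members on either diet, against 3.17% and 2.82% of all genes. At an unadjusted p under 0.05, limma called 48 members lower and 0 higher on CR, against 16% and 13.3% of all genes, and 46 lower and 0 higher on the control diet, against 17.1% and 14.7%.

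Mrpl45 had the smallest p on both diets. Its protein sits at the exit of the ribosomal tunnel and takes part in holding the ribosome at the inner membrane. Its intensity had a lowest, median and highest value of 942, 1044 and 1085 in CR labelled MKO mice, against 1438, 1532 and 1628 in CR FLOX mice. On the control diet the values were 963, 1024 and 1099 in labelled MKO mice, against 1230, 1326 and 1378 in FLOX mice. No labelled MKO mouse reached the lowest FLOX mouse of the same diet. The log2 change was -0.57 ± 0.04 (SE) on CR, 1.49-fold lower (adjusted p = 7.87e-11), and -0.35 ± 0.04 on the control diet, 1.28-fold lower (adjusted p = 6.78e-07, limma).

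Mrpl15, the counterpart of bacterial L15, followed. It measured 2165, 2324 and 2389 (lowest, median and highest) in CR labelled MKO mice, against 2947, 3107 and 3276 in CR FLOX mice. In control-diet mice it measured 1943, 2147 and 2359 in labelled MKO mice, against 2625, 2723 and 2851 in FLOX mice. Again the genotypes did not overlap on either diet. The log2 change was -0.43 ± 0.04 on CR (adjusted p = 1.10e-08) and -0.34 ± 0.04 on the control diet (adjusted p = 7.43e-07, limma). Its chosen probe set carries a suffix for probes that may bind several transcripts. All 7 of its passing probe sets changed in the same direction on CR, from -0.43 to -0.12, and 5 of them were called. The mean of its probe sets gave -0.28 on CR.

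Among the next genes by p on CR, Mrpl16, Mrpl4 and Mrpl46 fell by 0.32, 0.46 and 0.35 on the log2 scale (adjusted p = 2.84e-08, 3.70e-08 and 4.46e-07, limma). Mrpl16 and Mrpl4 are counterparts of the bacterial proteins L16, which lies near the tRNA sites, and L4, which lines the exit tunnel, and Mrpl46 is specific to mitochondria. On the control diet the next were Mrpl39, Mrpl42 and Mrps27, which fell by 0.31, 0.26 and 0.32 (adjusted p = 1.88e-06, 5.09e-06 and 7.19e-06, limma). Mrps27, a pentatricopeptide repeat protein of the small subunit, measured 528 to 580 in CR labelled MKO mice, against 657 to 777 in CR FLOX mice, and 428 to 512 in control-diet labelled MKO mice, against 570 to 668 in control-diet FLOX mice. It was the small subunit gene of smallest p on both diets.

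Picked after their values were seen, 2 large subunit genes stood out by size with wide spread. Mrpl20 had the largest log2 change on the control diet, -0.61 ± 0.12 (adjusted p = 0.000944, limma), with 1445 to 2277 in labelled MKO mice and 2275 to 3704 in FLOX mice. On CR its change was -0.23 ± 0.12 (adjusted p = 0.224), with 1538 to 2200 in labelled MKO mice and 1720 to 2557 in FLOX mice. Mrpl47 fell by 0.48 ± 0.14 on CR and by 0.42 ± 0.14 on the control diet (adjusted p = 0.0197 and 0.0418, limma), and its genotype ranges overlapped on both diets.

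The comparisons on CR and on the control diet share no mice. Of the members called lower, 29 were called in both, 72.5% of the 40 on CR and 78.4% of the 37 on the control diet. Over all genes, 852 were called lower in both, 63.4% of the 1344 on CR and 56.1% of the 1518 on the control diet. Across the 76 genes the log2 changes on CR and on the control diet had a Pearson correlation of 0.755 and the same sign in 72. This is a description over genes, which are not independent replicates, and the values over all genes are not given here. Where other probe sets of a called member passed the filter, 37 of 39 on CR and 28 of 33 on the control diet had the sign of the chosen one. Only 18 of the 39 and 12 of the 33 were themselves called in that direction, and none was called in the opposite direction. Some markers of other cells moved with genotype: of 6 endothelial markers 3 fell in labelled MKO mice on CR and 2 on the control diet. With quantile normalization, as with median centring, 1 endothelial marker fell on CR and 2 on the control diet. Of 8 fibroblast and tendon markers, as of 6 macrophage markers, 0 fell on CR and 1 on the control diet. The summed intensity of the endothelial markers was 3780 to 4784 in CR labelled MKO, 4490 to 4893 in CR FLOX, 4660 to 5756 in control-diet labelled MKO and 4780 to 5665 in control-diet FLOX mice. Of 6 slow fibre markers 1 rose on CR and none was called on the control diet, and their summed intensity was 3524 to 15039 in CR labelled MKO, 2044 to 4358 in CR FLOX, 2466 to 7421 in control-diet labelled MKO and 1854 to 6641 in control-diet FLOX mice. The part of these cells in the genotype changes of the ribosomal genes was not tested. Without the 2 mice rich in slow fibre transcripts, 42 members fell on CR and 26 on the control diet. Every passing probe set was also fitted separately, and the share of all probe sets called in that fit is not given here. Counted over the 145 probe sets of members, 63 were lower and 0 higher on CR, and 52 were lower and 1 higher on the control diet. The 1 higher was a further probe set of Mrps14, at 0.12 ± 0.04, whose chosen probe set gave 0.0070 and was not called.

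**Figure D2:**
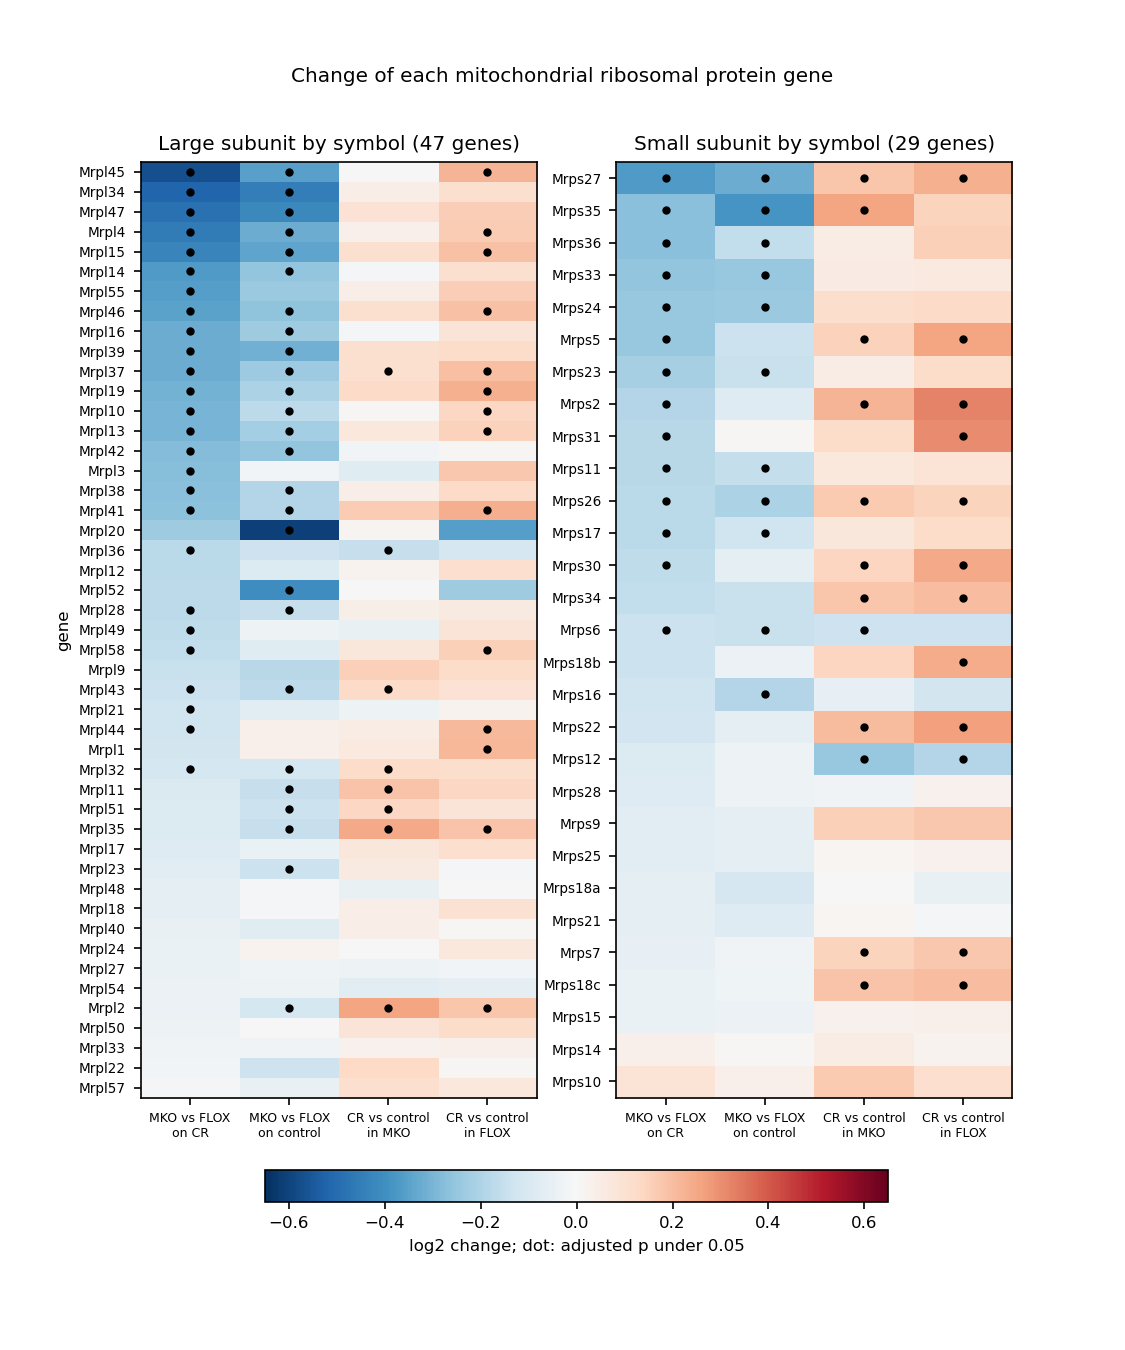
Log2 change of each of the 76 genes in the 4 comparisons, with large subunit genes on the left and small subunit genes on the right, ordered by the change in labelled MKO against FLOX mice on CR. Dots mark an adjusted p under 0.05: 40 and 37 genes fell in labelled MKO mice on CR and on the control diet, 17 rose with CR in labelled MKO mice and 25 rose with CR in FLOX mice.

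Promoters of members that moved are shown because the regulators of this pathway are known by their DNA motifs. The sequences are from RefSeq (GRCm38.p6), from 250 bases before to 50 bases after the annotated start, and 67 of the 76 genes matched, with 73 windows. Capitals mark matches on either strand to GCGCANGCG (NRF1), CCGGAAG (ETS factors such as GABP), AAGGTCA (estrogen-related receptors, ERR) and AANATGGC (YY1). Mrpl45 and Mrpl39 are large subunit genes that fell in labelled MKO mice, Mrps27 is the small subunit gene of smallest p there, and Mrps12 is the gene that CR lowered in both genotypes.
Mrpl45, chr11:97315466-97315765, plus strand: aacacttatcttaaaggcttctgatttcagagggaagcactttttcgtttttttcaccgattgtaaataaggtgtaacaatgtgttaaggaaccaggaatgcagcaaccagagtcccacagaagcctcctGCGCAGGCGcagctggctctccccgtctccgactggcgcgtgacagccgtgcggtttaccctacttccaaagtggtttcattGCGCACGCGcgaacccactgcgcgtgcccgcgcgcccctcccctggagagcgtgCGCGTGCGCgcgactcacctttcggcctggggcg
Mrpl39, chr16:84735195-84735494, minus strand: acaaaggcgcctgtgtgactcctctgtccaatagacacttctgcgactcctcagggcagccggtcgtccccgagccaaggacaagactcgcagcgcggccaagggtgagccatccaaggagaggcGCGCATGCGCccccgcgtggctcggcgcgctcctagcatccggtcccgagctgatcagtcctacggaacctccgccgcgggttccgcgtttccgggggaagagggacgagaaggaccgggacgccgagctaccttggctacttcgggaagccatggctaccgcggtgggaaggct
Mrps27, chr13:99344536-99344835, plus strand: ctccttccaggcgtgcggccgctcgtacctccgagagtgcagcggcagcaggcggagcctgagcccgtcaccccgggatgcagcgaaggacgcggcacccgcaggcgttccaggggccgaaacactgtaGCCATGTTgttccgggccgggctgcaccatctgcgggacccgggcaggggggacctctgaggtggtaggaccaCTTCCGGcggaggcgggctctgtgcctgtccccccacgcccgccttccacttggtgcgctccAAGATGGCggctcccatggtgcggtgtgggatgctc
Mrps12, chr7:28741772-28742071, minus strand: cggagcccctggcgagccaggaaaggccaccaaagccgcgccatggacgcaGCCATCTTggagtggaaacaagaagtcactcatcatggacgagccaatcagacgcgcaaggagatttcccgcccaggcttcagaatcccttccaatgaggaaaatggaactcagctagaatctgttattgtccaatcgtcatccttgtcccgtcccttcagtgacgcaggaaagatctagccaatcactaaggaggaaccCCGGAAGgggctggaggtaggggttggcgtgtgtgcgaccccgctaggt
The Mrpl45 window holds 3 NRF1 matches, with 1 on the minus strand, and the Mrpl39 window holds 2 that overlap, 1 on each strand. The Mrps27 window holds 1 ETS match and 2 YY1 matches, and the Mrps12 window holds 1 of each. Every window shown holds a match, which is not so for all members that moved. The windows of Mrpl2, Mrpl16, Mrpl46, Mrps2, Mrps6 and Mrps31, which were also called, hold none of these motifs.

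Over all member windows the YY1 letters were found in 28.8%, against 7.24% of the windows of genes tested on the arrays and 6.05% of all promoters. The ETS letters were in 34.2%, against 14.4% and 8.86%. NRF1 letters were in 20.5%, against 10.9% and 6.25%, and ERR letters in 5.48%, against 3.66% and 4.72%. Members called lower in labelled MKO mice on CR had the NRF1 letters in 20.6% of 34 windows, against 20.5% of 39 windows of members not called. For the ETS letters these shares were 26.5% and 41.0%, for YY1 35.3% and 23.1%, and for ERR 2.94% and 7.69%. Split by the control-diet calls, the shares in called and uncalled windows were 17.6% and 23.1% for NRF1, 26.5% and 41.0% for ETS, 29.4% and 28.2% for YY1, and 0% and 10.3% for ERR. The matches are descriptions of letters and no test was made of them.

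Of 9 tested regulators of mitochondrial genes (the PGC-1 family, ERR alpha, NRF1, GABP, YY1 and Myc), 2 rose and 1 fell in labelled MKO mice on CR, and 3 rose and 1 fell on the control diet, with Ppargc1a itself among those that rose on both. Esrra, which encodes ERR alpha, a receptor that PGC-1a coactivates, fell in labelled MKO mice by 0.48 ± 0.05 on CR (1.40-fold, adjusted p = 1.11e-07) and by 0.53 ± 0.05 on the control diet (1.44-fold, adjusted p = 3.53e-08, limma). Yy1 rose by 0.28 ± 0.06 and 0.35 ± 0.06 (adjusted p = 0.0018 and 0.00022, limma). Nrf1, Gabpa and Gabpb1 were called in none of the 4 comparisons.

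Calorie restriction raised a share of the members in FLOX mice. In CR FLOX against control-diet FLOX mice 25 of the 76 genes rose (14 large, 11 small subunit), against 4.66% of all genes called higher, and 1 fell, against 5.37% called lower. The median log2 change was 0.12, against 0.0012 over all genes. Called members were 1.10- to 1.25-fold higher (median 1.15-fold). All CR mice lay above all control-diet mice for 15 members, against 2.32% of all genes, and below them for 1, against 3.08%.

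Mrps2, the counterpart of bacterial S2, led. It measured 837, 920 and 957 (lowest, median and highest) in CR FLOX mice, against 671, 697 and 796 in control-diet FLOX mice. The groups did not overlap, and the log2 change was 0.32 ± 0.05 (1.25-fold, adjusted p = 0.000149, limma). With the mean of its probe sets it was 0.21 and still called. Mrps30, named for the small subunit but placed in the large subunit by structures of the ribosome, measured 1098, 1128 and 1169 in CR FLOX mice, against 877, 964 and 1020 in control-diet FLOX mice. These groups did not overlap either, and the change was 0.24 ± 0.04 (1.18-fold, adjusted p = 0.000239, limma). Mrps31, Mrpl45 and Mrps27 rose by 0.31, 0.22 and 0.23 (adjusted p = 0.000621, 0.00104 and 0.00151, limma). All 3 are specific to mitochondria.

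Mrps12 moved the other way. Its bacterial counterpart S12 lies at the decoding centre, where it affects the accuracy of translation. It measured 1132, 1212 and 1268 in CR FLOX mice, against 1335, 1374 and 1451 in control-diet FLOX mice, without overlap. The log2 change was -0.19 ± 0.04 (1.14-fold lower, adjusted p = 0.00416, limma). This gene has a single passing probe set, with a suffix for probes that may bind several transcripts.

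In labelled MKO mice restriction raised 17 members (7 large, 10 small subunit), against 6.64% of all genes called higher, and lowered 3, against 8.49%. The median log2 change was 0.060, against 0.00095 over all genes. Called members were 1.08- to 1.19-fold higher (median 1.13-fold), and all CR mice lay above all control-diet mice for 5 members, against 1.45% of all genes, and below them for 0, against 2.03%. With quantile normalization 23 rose and 1 fell, where 1176 of all 14845 genes rose and 1186 fell. With median centring 12 rose and 3 fell, where 838 of all 14847 genes rose and 1239 fell. Without the 2 mice rich in slow fibre transcripts the number called higher was 9, and without control-diet MKO mouse 4 alone it was 11. The median was 0.051 without both mice.

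Mrpl2, the counterpart of bacterial L2 near the peptidyl transferase centre, measured 3054, 3292 and 3369 in CR labelled MKO mice, against 2472, 2733 and 2855 in control-diet labelled MKO mice. The groups did not overlap, and the log2 change was 0.26 ± 0.03 (1.19-fold, adjusted p = 1.58e-05, limma). Mrpl35 measured 2136, 2248 and 2482, against 1664, 2003 and 2117 on the control diet, also without overlap, a change of 0.24 ± 0.05 (adjusted p = 0.00115, limma). Its other 2 passing probe sets gave 0.046 and -0.017 and were not called, and the mean over its probe sets gave 0.091 (adjusted p = 0.0296). Mrps2, Mrps18c and Mrpl11 rose by 0.22, 0.19 and 0.19 (adjusted p = 0.00183, 0.00274 and 0.00332, limma). Mrpl11 is the counterpart of L11 at the site where translation factors bind, and its change was 0.12 with the mean of its probe sets.

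Mrps12 fell in labelled MKO mice as well. It measured 1068, 1141 and 1171 in CR labelled MKO mice, against 1166, 1351 and 1447 in control-diet labelled MKO mice. The overlap came from control-diet mouse 4, at 1166, and the other 6 lay at 1316 or above. The log2 change was -0.24 ± 0.04 (1.18-fold lower, adjusted p = 0.000102, limma). Mrps6, the counterpart of bacterial S6, measured 594, 622 and 667 in CR labelled MKO mice, against 615, 693 and 754 on the control diet, an overlapping pair with a change of -0.13 ± 0.04 (adjusted p = 0.0373, limma). Mrpl36, a small protein of the large subunit, fell by 0.15 ± 0.05 (adjusted p = 0.0403). The calls of Mrps6 and Mrpl36 were lost with quantile normalization (adjusted p = 0.101 and 0.0884).

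The diet comparisons share no mice with each other. Of the members called higher, 12 were called in both genotypes, 70.6% of the 17 in labelled MKO and 48% of the 25 in FLOX mice. Over all genes, 405 were called higher in both, 41.1% of the 986 in labelled MKO and 58.5% of the 692 in FLOX mice. The 12 were Mrpl2, Mrpl35, Mrpl37, Mrps2, Mrps5, Mrps7, Mrps18c, Mrps22, Mrps26, Mrps27, Mrps30 and Mrps34, so 9 of them carry a small subunit symbol. Across the 76 genes the changes in labelled MKO and in FLOX mice correlated at 0.66 (Pearson, across genes) and had the same sign in 65. Neither value is given over all genes. Other passing probe sets of called members had the sign of the chosen one in 10 of 14 cases in labelled MKO and 21 of 24 in FLOX mice. Only 3 of the 14 and 8 of the 24 were themselves called in that direction, and none was called in the opposite direction. CR also lowered markers of other cells: of 8 fibroblast and tendon markers 7 fell in labelled MKO and 7 in FLOX mice, with median log2 changes of -0.69 and -0.76. Their summed intensity was 7985 to 13143 in CR labelled MKO, 9309 to 12836 in CR FLOX, 15068 to 20510 in control-diet labelled MKO and 14757 to 21930 in control-diet FLOX mice. Endothelial markers fell with CR in 4 of 6 cases in labelled MKO and 2 of 6 in FLOX mice, and macrophage markers in 1 of 6 and 2 of 6. The part of these cells in the diet changes of the ribosomal genes was not tested.

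**Figure D3:**
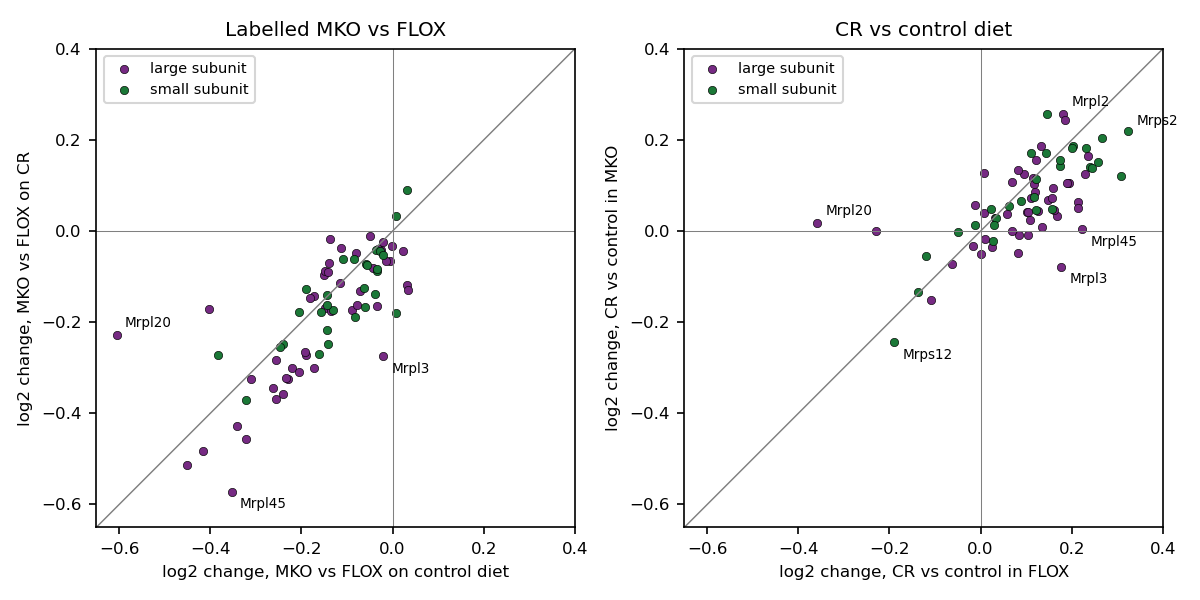
Log2 change of each of the 76 genes: labelled MKO against FLOX mice on CR (vertical) and on the control diet (horizontal) on the left, and CR against control diet in labelled MKO (vertical) and FLOX mice (horizontal) on the right, with the line of equal change. On the left 72 genes have the same sign in both comparisons, and on the right 65; Mrpl45 lies near 0 on the vertical axis of the right panel.

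The difference between the diet effects, labelled MKO minus FLOX, was tested for each gene. No member was called, against 0% of all genes, and limma at an unadjusted p under 0.05 gave 1 member higher and 9 lower, against 2.18% and 2.67% of all genes. The median difference over the members was -0.040, against -0.0012 over all genes. Of the 76 differences 55 were below 0, against 7529 of 14847 over all genes. Mrpl45 had the smallest p: its diet change was 0.0043 ± 0.04 in labelled MKO and 0.22 ± 0.04 in FLOX mice, a difference of -0.22 ± 0.06 (95% interval -0.34 to -0.10, adjusted p = 0.697, limma). Mrpl3, with changes of -0.078 in labelled MKO and 0.18 in FLOX mice, had a difference of -0.26 ± 0.08 (adjusted p = 0.973), which was -0.14 with the mean of its probe sets. Mrpl44, a protein with a ribonuclease III fold, had changes of 0.051 and 0.21 and a difference of -0.16 ± 0.06 (adjusted p = 0.999). None of these passes the correction over all genes.

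**Figure D4:**
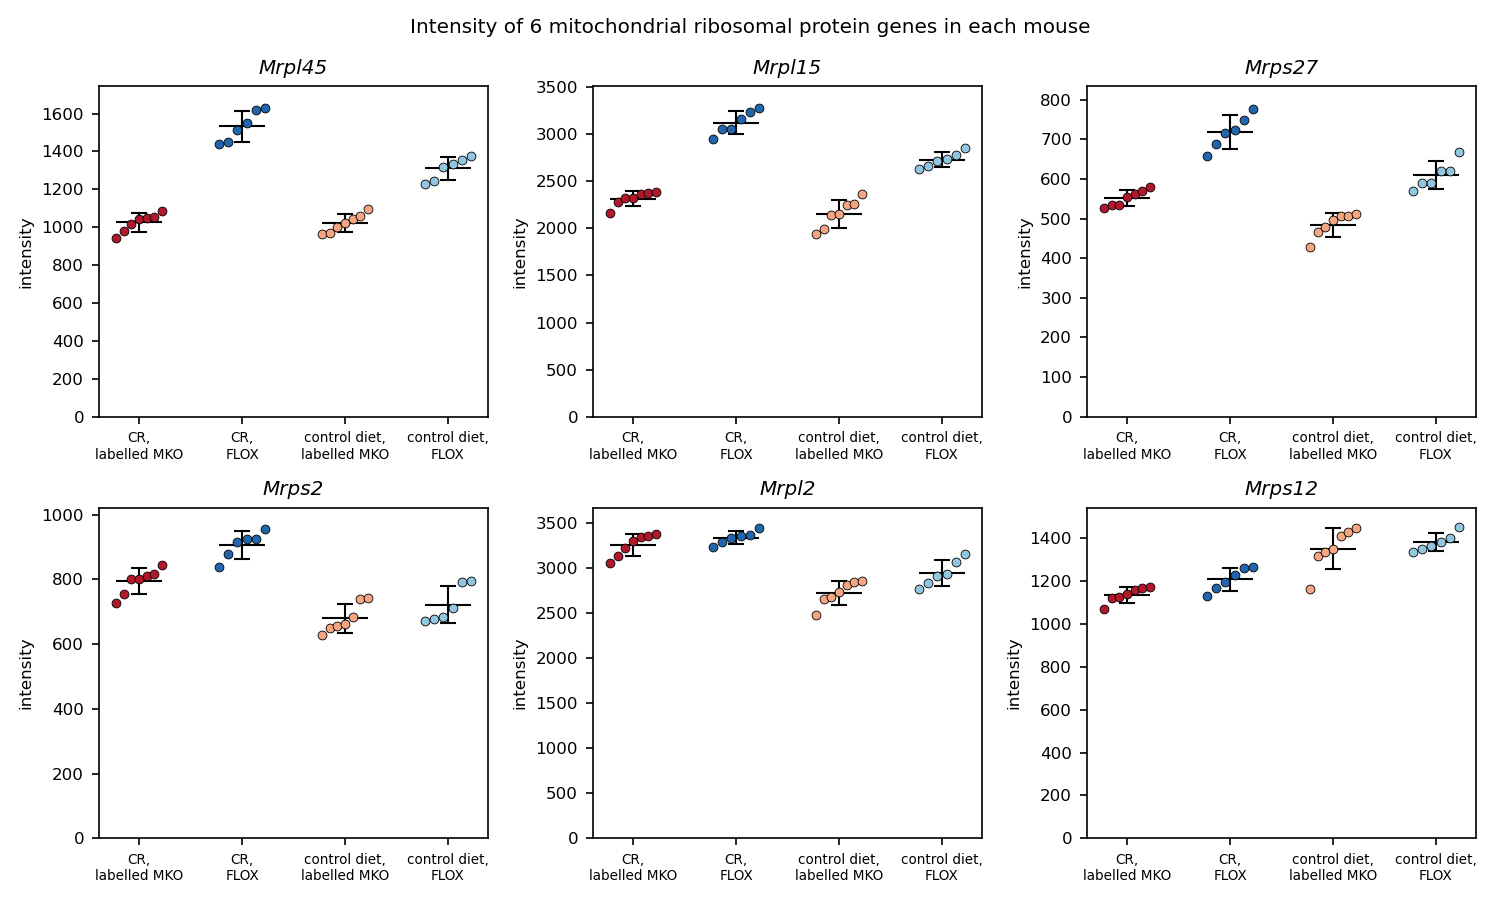
Intensity of 6 genes in each mouse (points, ordered by value within a group), with group mean and SD as bars. Mrpl45, Mrpl15 and Mrps27 separate the genotypes on each diet, Mrps2 and Mrpl2 are higher with CR, and Mrps12 is lower with CR, with 1068 to 1171 in CR labelled MKO mice against 1166 to 1447 in control-diet labelled MKO mice.

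By group means, CR FLOX was the highest of the 4 groups for 63 of the 76 genes and control-diet labelled MKO the lowest for 54. Both FLOX means lay above both labelled MKO means for 50 genes. The commonest order, seen for 33 genes, was CR FLOX, control-diet FLOX, CR labelled MKO and control-diet labelled MKO from high to low. The next, seen for 18, differed only in that CR labelled MKO lay above control-diet FLOX. These orders were not counted over all genes. Of the 76 genes, 55 were called in at least 1 of the 4 comparisons, where 36% of all genes were, and 21 in none, among them Mrpl12, Mrpl33, Mrps10 and Mrps14.

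The large and small subunit genes were then set side by side, with no test. The median log2 change of the large minus that of the small subunit genes was -0.023 for labelled MKO against FLOX on CR and -0.062 on the control diet, and -0.069 for CR in labelled MKO and -0.011 in FLOX mice. Within each mouse the large minus small mean level was 0.25 ± 0.02 in CR labelled MKO, 0.31 ± 0.02 in CR FLOX, 0.28 ± 0.03 in control-diet labelled MKO and 0.33 ± 0.01 in control-diet FLOX mice (SD). This is a difference of array signals over fixed genes, not a ratio of subunits. Without the 2 mice rich in slow fibre transcripts, the median difference for CR in labelled MKO was -0.011. With the subunit taken from structures, where Mrps30 and Mrps18a belong to the large subunit and Mrps36 to none, 27 of 49 large and 12 of 26 small subunit genes fell in labelled MKO mice on CR, and 26 of 49 and 10 of 26 on the control diet.

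Proteins specific to mitochondria and those with bacterial counterparts were also set side by side. Of the 12 mitochondria-specific small subunit genes, 7 rose with CR in FLOX and 6 in labelled MKO mice, and 0 fell in either. Of all genes, 4.66% rose in FLOX and 6.64% in labelled MKO mice, and 5.37% and 8.49% fell. Of the 17 small subunit genes with bacterial counterparts, 4 rose in each genotype, while 1 fell in FLOX and 2 fell in labelled MKO mice. In labelled MKO against FLOX mice on CR, 8 of the 12 and 6 of the 17 fell, against 9.05% of all genes. On the control diet 6 of the 12 and 5 of the 17 fell, against 10.2%. The 12 follow the symbols and so hold Mrps30, which rose with CR in both genotypes, and Mrps36, and both of these genes are among the 8 that fell. Among the large subunit genes the shares were 11 of 18 mitochondria-specific and 15 of 29 others on CR. On the control diet they were 10 of 18 and 16 of 29. No test of these splits was made.

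Genes that work with the mitochondrial ribosome were counted in the same way, to be read against the 9.05% (on CR) and 10.2% (on the control diet) of all genes lower in labelled MKO mice and the 6.64% (labelled MKO) and 4.66% (FLOX) higher with CR. Of 10 mitochondrial translation factors tested, 8 fell in labelled MKO mice on CR and 5 on the control diet, led by Gfm1, the elongation factor that moves tRNAs through the ribosome, at -0.43 ± 0.04 and -0.42 ± 0.04 (adjusted p = 1.35e-08 and 3.53e-08, limma). With CR, Tsfm rose in FLOX mice and the recycling factor Mrrf fell in labelled MKO mice, and no other factor was called. Of 20 genes for charging mitochondrial tRNAs, 8 fell on CR and 6 on the control diet, led by Qrsl1, a subunit of the amidotransferase that makes glutaminyl-tRNA (-0.41 ± 0.04), on CR and by Fars2, the phenylalanyl-tRNA synthetase (-0.39 ± 0.05), on the control diet. Mars2, the methionyl-tRNA synthetase, rose with CR by 0.32 ± 0.06 in labelled MKO and by 0.33 ± 0.07 in FLOX mice (adjusted p = 0.00101 and 0.0028, limma). Nars2 was the only other gene of that list called with CR, in labelled MKO mice, so 10% of the list rose in labelled MKO and 5% in FLOX mice, near the shares of all genes.

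Of 24 assembly factors, 7 fell and 1 rose in labelled MKO mice on CR, and 5 fell on the control diet. Eral1, a chaperone of the small subunit RNA, fell by 0.24 ± 0.04 on CR (adjusted p = 4.73e-05), the smallest p of the list, and Malsu1, which acts on the maturing large subunit, rose by 0.13 ± 0.04 (adjusted p = 0.0416), a call that was lost with quantile normalization. On the control diet Nsun4, a methyltransferase of the small subunit RNA, led with -0.15 ± 0.04 (adjusted p = 0.00802). With CR, 5 assembly factors rose in FLOX mice, led by Eral1 (0.15 ± 0.04), of which median centring left 1 called, and 1 in labelled MKO mice, Malsu1 (0.13 ± 0.04). Of 9 genes of mitochondrial transcription and RNA handling, 3 fell on CR and 4 on the control diet, led by the RNA helicase Supv3l1 (-0.35 ± 0.04 and -0.23 ± 0.04). With CR, 2 of them rose in each genotype, led by Slirp in labelled MKO (0.15 ± 0.04) and Supv3l1 in FLOX mice (0.18 ± 0.04). Of 4 mitochondrial ribosomal proteins with other symbols, 2 fell in labelled MKO mice on CR and 1 on the control diet, and 2 rose with CR in each genotype. Among them Dap3 fell in labelled MKO mice on both diets (-0.25 ± 0.04 and -0.16 ± 0.04) and rose with CR in both genotypes (0.16 ± 0.04 in labelled MKO and 0.25 ± 0.04 in FLOX mice).

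Protein genes of the cytosolic ribosome went the other way with genotype. The 38 tested are those found by symbol on probe sets naming a single gene. Of these, 30 rose in labelled MKO mice on CR and 12 on the control diet, against 8.23% and 9.06% of all genes. With CR 31 rose in labelled MKO and 11 in FLOX mice, against 6.64% and 4.66%. In each of these comparisons 0 fell. Their median changes were 0.18 and 0.093 for genotype and 0.17 and 0.088 for diet. Symbols of this family include genes with near-identical copies, so single members are not given.

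**Figure D5:**
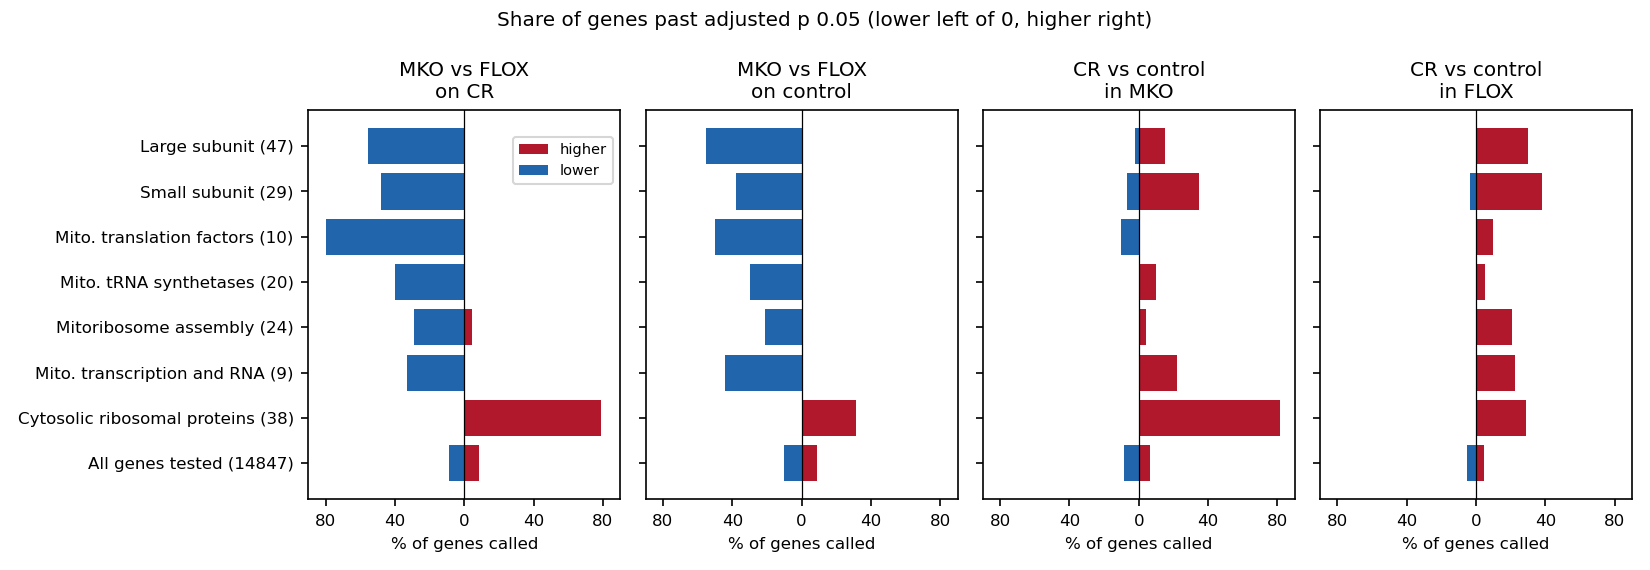
Percent of the genes in each list called higher (right of 0) or lower (left of 0) at an adjusted p under 0.05, in the 4 comparisons, with the number of genes tested in brackets. The mitochondrial ribosomal subunits and the lists that work with them lie mostly to the left in labelled MKO against FLOX mice, where 30 of 38 cytosolic ribosomal protein genes lie to the right on CR, and all genes tested are at 9.05% lower and 8.23% higher there.

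A start site of another gene within 1000 bases on the opposite strand, facing away, was found for 25 of the 67 members with a promoter entry (37.3%), against 2003 of 11876 genes tested on the arrays (16.9%). In 23 of the 25 cases the neighbour was tested too. In labelled MKO mice on CR 14 of the 23 members fell, and 8 of the neighbours fell and 3 rose, against 9.05% of all genes lower and 8.23% higher there, and both of a pair fell in 5, with Mrpl46 and Mrps11, each the neighbour of the other, counted from both sides. For the control diet 12 members fell, and 7 neighbours fell and 2 rose, against 10.2% of all genes lower and 9.06% higher. Both of a pair fell in 6. On either diet the neighbours that fell include Mrpl46 and Mrps11, which are members, and the 6 pairs also count them from both sides. In 2 pairs on CR, Mrpl32 with Psma2 and Mrpl49 with Fau, the member fell and the neighbour rose, as Mrpl32 and Psma2 did on the control diet. Mrpl46 and Mrps11 start 42 bases apart and both fell on CR (by 0.35 and 0.18) and on the control diet (by 0.26 and 0.16). Mrps27 starts 108 bases from Ptcd2, which fell by 0.28 and 0.29 and rose with CR by 0.16 in labelled MKO and 0.15 in FLOX mice. Sars2, the mitochondrial seryl-tRNA synthetase, starts 147 bases from Mrps12 and was called in none of the 4 comparisons.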

How the data were processed

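Total RNA of TA/EDL muscle from 26 mice was measured on 1-colour Affymetrix arrays after Trizol extraction and column clean-up, per the labels' protocols. The deposited table holds 1 intensity per probe set and array on a linear scale. The steps by which the authors corrected, summarised and normalized the intensity values are not given in the sources used here. Array minima were 56.6 to 62.8 and medians 212 to 232, and a floor of this size compresses the changes of dim genes. The number of arrays limits the precision.

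Probe sets naming 1 gene (34945) were kept if their mean log2 value reached the 30th percentile (7.47), and the brightest per gene was used, which left 14847 genes. The 76 members all passed, 39 of them with several passing probe sets, and 10 through a probe set with the suffix _s_at or _x_at. From the deposited values log2(intensity + 16) was computed and fitted in R 4.3.3 by limma 3.58.1, using lmFit and eBayes over all 26 arrays with a mean for each of the 4 groups, and Benjamini-Hochberg adjustment over all genes. Figures and promoter searches used Python 3.11.15. The fit was tested on simulated data.

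Groups follow the array titles. Each array is 1 mouse, so p-values measure the spread between mice, and the replicate numbers are not stated to pair them. The members, gene lists, classes and tests were chosen with earlier results of these data known. Full statistics are given for the members of smallest p, up to 5 in each direction and comparison, values by mouse for the first 2 of these, and for the interaction the 3 members of smallest p; in each other list the gene of smallest p is named. Alternatives changed the pseudocount, filter, scaling, probe set choice, variance model, weights, arrays fitted and threshold, and left out each mouse in turn.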

Additional observations from a re-analysis of the deposited data

Results flagged for a closer look

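Among 92 groups of mice tested for a single distant value (the 20 named members and the subunit means and their difference, in each of the 4 groups), 1 was found, where chance alone marks about 1 in 20 groups. Mrpl46 measured 999 in CR FLOX mouse 3, against 1082 to 1112 in the other CR FLOX mice. The call of Mrpl46 in labelled MKO against FLOX mice on CR held without that mouse (log2 change -0.37).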

How the results depend on the processing

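The directions of the genotype and diet shifts held under every alternative and without any single mouse: the median of the members stayed between -0.17 and -0.14 for labelled MKO on CR, -0.15 and -0.10 on the control diet, 0.051 and 0.082 for CR in labelled MKO and 0.10 and 0.13 for CR in FLOX mice under the alternatives. No result reversed. At an adjusted p under 0.01, 24 members fell in labelled MKO mice on the control diet, CR raised 8 and lowered 1 in labelled MKO mice, and it raised 15 in FLOX mice. Fitting only the groups compared gave 10 members higher with CR in labelled MKO and 2 lower in FLOX mice. Quantile normalization gave 23 higher and 1 lower with CR in labelled MKO mice. The number lowered by CR in FLOX mice was 3 with array weights and 0 without _s_at and _x_at probe sets, which drops Mrps12. Without the 2 arrays rich in slow fibre transcripts, an alternative added after seeing the data, CR raised 9 in labelled MKO mice. The large minus small subunit median for CR in labelled MKO mice was -0.018 with the mean of the probe sets and -0.011 without the slow-rich arrays. For the interaction it was -0.0047 with the mean of the probe sets and -0.016 with array weights, and for CR in FLOX mice -0.038 without _s_at and _x_at probe sets. The causes of these shifts were not tested.

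Leaving out 1 mouse at a time, CR raised 11 to 21 members in labelled MKO mice, the lowest without control-diet MKO mouse 4, and lowered 1 to 3 (1 without CR MKO mouse 1, 3 or 4 or control-diet MKO mouse 2, 3 or 6). In FLOX mice it raised 18 to 30 and lowered 1 to 2 (2 without CR FLOX mouse 4, control-diet MKO mouse 4 or control-diet FLOX mouse 1, 3 or 6). Members lower in labelled MKO mice numbered 34 to 42 on CR and 25 to 40 on the control diet. The large minus small median ranged from -0.072 to -0.027 for CR in labelled MKO mice (nearest 0 without control-diet MKO mouse 4), from -0.029 (without CR FLOX mouse 4) to -0.0081 for CR in FLOX mice, from -0.073 to -0.040 (without control-diet FLOX mouse 4) for labelled MKO on the control diet, from -0.036 to -0.00058 for labelled MKO on CR (without CR FLOX mouse 4) and from -0.041 to -0.0015 for the interaction (without control-diet MKO mouse 3). The size of this difference thus depended on single mice in every comparison, while its sign did not. The median interaction of the members ranged from -0.060 (without control-diet FLOX mouse 6) to -0.021 (without control-diet FLOX mouse 2). Mrps6 and Mrpl36 lost their call for CR in labelled MKO mice in 9 and 10 of the 26 cases.

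Shared replicate numbers showed no strong pairing. Same-numbered mice had a median correlation of deviations of 0.083 (-0.36 to 0.34), against -0.012 (-0.43 to 0.50) for differently numbered mice. Of 26 arrays, 2 correlated best with their own number. With the replicate number as a block, 43 and 37 members fell in labelled MKO mice on CR and on the control diet, and CR raised 16 in labelled MKO and 28 in FLOX mice. The arrays cannot set the level of 1 probe set against another.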
